A study of Mus musculus with 5 samples.

Results

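The last step of a fasting course was described in mouse hepatocytes, from 24 h to 30 h without food. It took every cell barcode that the deposited barcode table assigned to the 24 h library (8558 barcodes) or to the 30 h library (10094 barcodes), which made 18652 of the 47473 barcodes of the series. Each library was a targeted single-cell RNA-seq library of hepatocytes isolated from liver and enriched for a panel of 64 genes. Unique molecular identifiers (UMIs) of each gene were summed per library and divided by the summed panel UMIs, which gave CPM, counts per 1000000 panel UMIs.

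All groups were wild-type (WT) male C57BL/6J mice on Normal Chow. They were trained for 3 days with 16 h of overnight fasting and 8 h of daytime feeding, and on the day of the experiment had food with water that held 20% sucrose. The fed library (0 h) was collected after 4 h of this feeding at clock hour 13, when food and sucrose water were taken from the other mice. The 8 h library was collected at clock hour 21, the 16 h library at clock hour 5, the 24 h library at clock hour 13 and the 30 h library at clock hour 19. Hours without food and clock hour therefore both differ between 24 h and 30 h, and their parts in a difference cannot be told apart. Each time had 1 library, the sources used here do not give the number of mice in it, and no difference below has a replicate check or a p-value. Intervals are at 95% and cover counting error only.

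In a fast the liver first spends its glycogen and then makes glucose from lactate, glycerol and amino acids, with phosphoenolpyruvate carboxykinase (Pck1) and glucose-6-phosphatase (G6pc) at the ends of the pathway. Fatty acid synthesis, which insulin and sucrose drive, is low in this state, and fatty acids from adipose tissue are oxidised instead. Hepatocytes near the portal vein express Cyp2f2 and much of the gluconeogenic machinery, and those near the central vein express Cyp2e1, Gulo and Cyp7a1, with glutamine synthetase (Glul) in a thin layer at the vein itself.

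Depth was similar on both sides. The 24 h library held 10432123 UMIs with a median of 1202.5 per barcode, and the 30 h library held 11288725 UMIs with a median of 1149. Albumin (Alb), the hepatocyte secretory protein, took 71.8% of the UMIs at 24 h and 69.9% at 30 h, and every barcode of both libraries had an Alb UMI. Of 22 listed genes of other liver cell types the panel held 6 (Cd68, Cdh5, Mrc1, Pdgfra, Pdgfrb and Ptprc). Their sum was 43.2 CPM (39.3 to 47.4) at 24 h and 29.7 CPM (26.6 to 33.0) at 30 h, and 17 and 18 barcodes held at least 3 of their UMIs. In all, 27 barcode sequences occurred in both libraries, 0.315% of those at 24 h and 0.267% of those at 30 h. Taking Alb out of the denominator moved every log2 ratio by -0.093.

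Of the 55 panel genes with at least 100 UMIs over both libraries, 21 (38.2%) differed more than 1.5-fold, 10 higher at 30 h (18.2%) and 11 lower (20%). The other 9 panel genes, Fgf15 among them, had fewer UMIs and were not compared. Without Alb, 20 of 54 did (37%), 8 higher (14.8%) and 12 lower (22.2%). The median log2 ratio of the 55 genes was 0.081. At 30 h, 17 of the 55 genes were at their highest level of the 5 libraries, 7 of them over 1.5-fold above 24 h. Another 13 were at their lowest, 7 of them over 1.5-fold below 24 h. The remaining 25 genes lay between the other libraries. The genes above 24 h were led by the elongase Elovl3, the fasting hormone Fgf21, the bile acid hydroxylase Cyp8b1, the serine-degrading enzyme Sds, the growth factor Igf1 and Pck1. Those below were led by the bile acid hydroxylase Cyp7a1, the macrophage gene Cd68, Cyp2c70, Gulo and the desaturase Scd1.

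**Figure D1:**
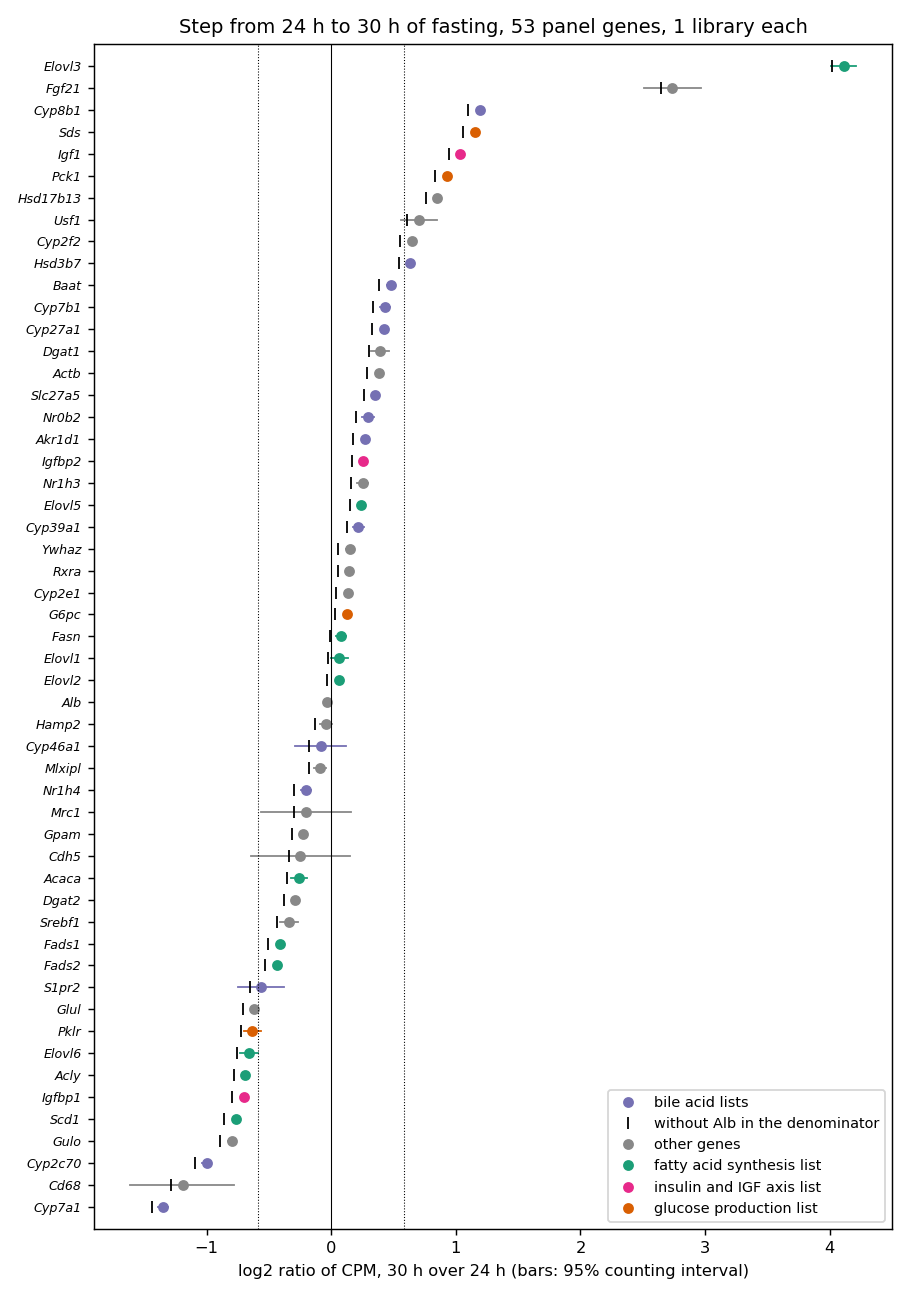
Log2 ratio of CPM at 30 h over 24 h (horizontal axis) for 53 of the 55 panel genes with at least 100 UMIs (vertical axis, sorted), 1 library per time. Points are coloured by gene list, lines are 95% counting intervals, black ticks are ratios without Alb in the denominator and dotted lines mark 1.5-fold. Elovl3 at 4.11 and Fgf21 at 2.74 stand apart at the top, and Cyp7a1 at -1.35 is at the bottom.

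Genes of glucose production were found on both sides. The counts of this and the following lists stand beside 18.2% higher and 20% lower among all 55 genes, and with so few members no list is set apart by its count. Of 17 listed genes the panel held 5, of which 2 were over 1.5-fold higher at 30 h (Pck1 and Sds) and 2 lower, Pklr among them, with a median log2 ratio of 0.12. Pck1 (GRCm38, chr2:173153048-173159273) makes phosphoenolpyruvate from oxaloacetate. Over the 5 libraries its level was 8772 CPM when fed, then 26189 (8 h), 36701 (16 h), 27659 (24 h, 27558 to 27760) and 52516 (30 h, 52383 to 52650). It was thus higher at 30 h than in any other library, by 1.90-fold against 24 h (log2 0.93, 0.92 to 0.93). Per barcode its mean went from 33.7 UMIs to 58.7, and without Alb its share of the remaining UMIs went from 9.80% to 17.4%.

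Sds (chr5:120476526-120483932), serine dehydratase, turns serine into pyruvate and so feeds amino acid carbon into glucose. Its levels were 1746, 4921, 2155, 3379 and 7506 CPM at 0, 8, 16, 24 and 30 h. The 30 h value was the highest of the 5 and 2.22-fold above 24 h (log2 1.15, 1.13 to 1.17). G6pc, which releases free glucose, did not go with them. It was at 3908, 7736, 7480 CPM in the first 3 libraries, and went from 5482 CPM to 5969 CPM in the last step (log2 0.12, 0.11 to 0.14). Per barcode its mean was 6.68 UMIs at 24 h and 6.68 at 30 h, so the sign of its step turned with the denominator.

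Pyruvate kinase (Pklr), the last step of glycolysis, was at 2804, 2773, 667, 394 and 254 CPM, its lowest level at 30 h, with a log2 ratio of -0.63 (-0.70 to -0.56) against 24 h.

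For Pck1, and for Fgf21 and Cyp2c70 described below, the RefSeq promoter (build GRCm38.p6) was read, because Pck1 and Fgf21 were higher together and Cyp2c70 was among the genes furthest below 24 h. The 250 bases before the start annotated in RefSeq are shown 5′ to 3′ on the gene's strand. For Pck1 and Cyp2c70 this start differs from that of the GENCODE gene position given here, and the bases shown overlap that position. Capitals mark the half-site of the cAMP response element (TGACG, or CGTCA on the other strand), the E-box CACGTG and the nuclear receptor half-site (AGGTCA, or TGACCT on the other strand).
Pck1, chr2:173152823-173153072, plus strand: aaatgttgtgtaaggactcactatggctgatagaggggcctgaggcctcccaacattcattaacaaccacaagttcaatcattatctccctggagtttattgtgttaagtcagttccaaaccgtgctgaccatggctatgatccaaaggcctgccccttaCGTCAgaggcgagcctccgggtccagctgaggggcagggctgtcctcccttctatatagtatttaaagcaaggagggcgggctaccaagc
Fgf21, chr7:45615491-45615740, minus strand: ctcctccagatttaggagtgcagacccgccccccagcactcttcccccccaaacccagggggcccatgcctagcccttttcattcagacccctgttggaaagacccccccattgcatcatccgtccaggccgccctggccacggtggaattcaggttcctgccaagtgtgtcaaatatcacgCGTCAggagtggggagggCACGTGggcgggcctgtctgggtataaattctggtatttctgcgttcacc
Cyp2c70, chr19:40187287-40187536, minus strand: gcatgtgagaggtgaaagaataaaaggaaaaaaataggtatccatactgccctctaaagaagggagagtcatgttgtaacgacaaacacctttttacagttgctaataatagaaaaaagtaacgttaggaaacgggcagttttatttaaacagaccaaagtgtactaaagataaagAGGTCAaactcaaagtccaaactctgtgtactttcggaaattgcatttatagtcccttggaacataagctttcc

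The RefSeq table held promoters of 45 of the 64 panel genes, and motifs were searched on both strands in 300 bases, 250 before the start and 50 after. TGACG was in a promoter of 4 of 8 genes over 1.5-fold higher (Cyp8b1, Fgf21, Hsd17b13 and Pck1). It was in 1 of 7 genes lower (Cd68), 3 of 23 of the rest and 20.9% of all 32544 distinct promoters of that length. Panel shares count genes with the motif in any of their promoters and the share of all promoters counts promoters, so the units differ. AGGTCA was in 3 of 8, 5 of 7 and 7 of 23, against 16.2% of all promoters. CACGTG was in 1 of 8, 0 of 7 and 4 of 23, against 7.17%. A match is a description of these letters in this window, not a bound site.

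Among hormones and their binding proteins, Igf1 was higher and Igfbp1 was lower. The panel held 3 of 9 listed genes of the insulin, glucagon and IGF axis, with a median log2 ratio of 0.26. Igf1 (chr10:87858265-87937042), the growth factor the liver secretes under growth hormone, was at 11549.9, 7514, 10707 and 10347 CPM in the first 4 libraries and at 21227 CPM at 30 h. Every earlier library lay below the last, which stood 2.05-fold above 24 h (log2 1.04, 1.03 to 1.05). Igfbp1, an IGF-binding protein that insulin represses, was at 246, 5841, 1459, 3952 and 2432 CPM. At 30 h it was 1.62-fold below 24 h (log2 -0.70, -0.72 to -0.68) and still far above the fed library. Igfbp2, another binding protein, was at 8094 CPM at 24 h and 9669 at 30 h, the highest of the 5, with a log2 ratio of 0.26.

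Fgf21 (chr7:45613886-45615490), a hormone the liver secretes in fasting, had few UMIs. It was at 39.3, 49.3 and 83.3 CPM at 0, 8 and 16 h, at 17.3 CPM (14.8 to 20.0, from 180 UMIs) at 24 h and at 115 CPM (109 to 121, from 1298 UMIs) at 30 h. The 24 h library was the lowest of the 5 and the 30 h library the highest, so the ratio of 6.66-fold (log2 2.74, 2.51 to 2.97) sets the extremes of the course against each other. Against 0 h the log2 ratio at 30 h was 1.55 (1.36 to 1.73).

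**Figure D2:**
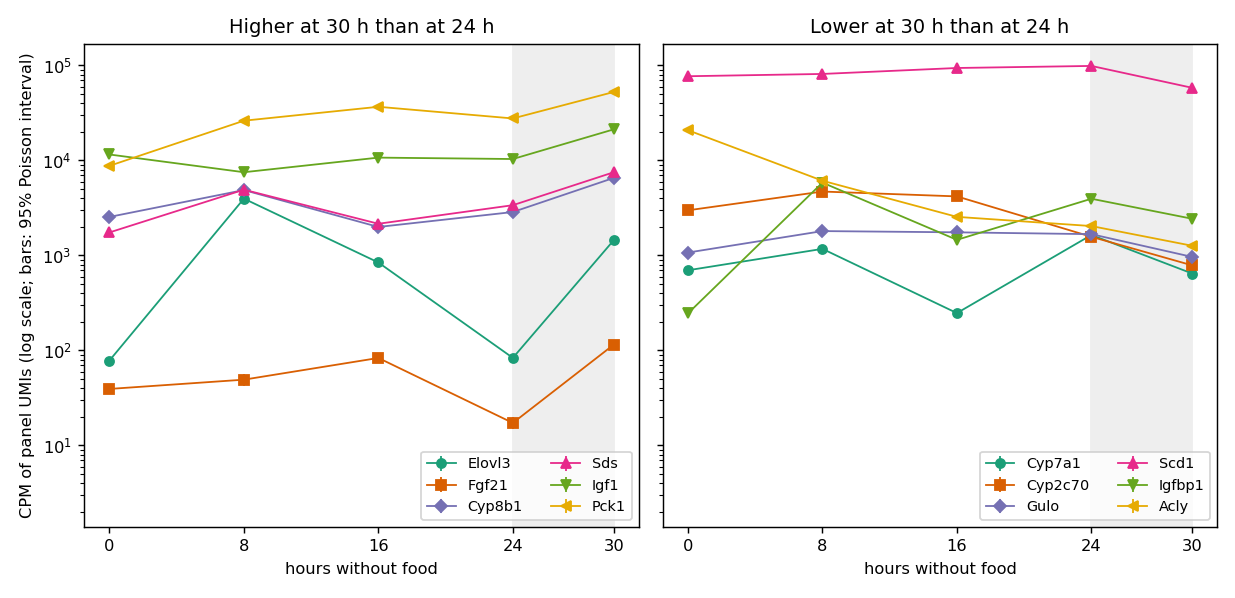
CPM of panel UMIs (vertical axis, log scale) against hours without food (horizontal axis) in the 5 libraries, with 95% Poisson intervals, for 6 genes higher at 30 h than at 24 h (left) and 6 lower (right); the span from 24 h to 30 h is shaded. Pck1, Igf1, Sds, Cyp8b1 and Fgf21 end at their highest level, while Elovl3 ends below its 8 h level of 3961 CPM.

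Of 15 listed fatty acid synthesis enzymes the panel held 11. Over 1.5-fold, 1 was higher (Elovl3) and 3 were lower (Scd1, Acly and Elovl6), beside 18.2% and 20% of all 55 genes, with a median log2 ratio of -0.26 against 0.081 for all 55 genes. Scd1 (chr19:44394455-44407879), which puts the first double bond into saturated fatty acids, was at 76954, 81346, 93956, 98785 and 58122 CPM at 0, 8, 16, 24 and 30 h. Its first 4 levels lay above the last, which was 1.70-fold below 24 h (log2 -0.77, -0.77 to -0.76), and its mean per barcode went from 120 UMIs to 65.0. Its share of the UMIs without Alb went from 35.0% to 19.3%, so Scd1 and Pck1 moved that denominator in opposite directions.

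ATP citrate lyase (Acly), which supplies cytosolic acetyl-CoA, was at 20793 CPM in the fed library and at 2038 CPM at 24 h and 1264 CPM at 30 h, its lowest level (log2 -0.69, -0.72 to -0.66). Elovl6, which elongates palmitate, was at 7911 CPM when fed, 347 at 24 h and 219.6 at 30 h (log2 -0.66, -0.74 to -0.59). Both genes were lowest at 30 h and highest in the fed library. Fatty acid synthase (Fasn) had gone from 27202 CPM at 0 h to 892 CPM at 24 h, and stood at 943 CPM after 30 h. Its log2 ratio was 0.081 (0.041 to 0.12), and -0.012 without Alb.

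Elovl3 (chr19:46131897-46135694), which elongates long saturated and monounsaturated fatty acids, had the widest step. It was at 78.3 CPM when fed, 3961 after 8 h and 843 after 16 h. The 24 h library had 83.5 CPM (78.0 to 89.2, from 871 UMIs) and the 30 h library 1445 CPM (1422 to 1467, from 16307 UMIs). The lowest levels were those of the 2 libraries from clock hour 13. The step was 17.3-fold (log2 4.11, 4.01 to 4.21). The other members ranged from a log2 ratio of -0.44 for the desaturase Fads2 to 0.24 for Elovl5.

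Among transcription factors of lipid synthesis and triglyceride enzymes, Usf1 and Hsd17b13 were over 1.5-fold higher. Usf1 was under it per barcode (log2 0.58), and both were without Alb, Scd1, Pck1 and Cyp2e1 in the denominator (0.38 and 0.53). The panel held 4 of 15 listed factors with a median of 0.082, and 1 was over 1.5-fold higher. That was Usf1, an E-box-binding factor, at 95.2, 64.3, 62.1, 58.6 and 95.4 CPM, so its 30 h level was that of the fed library (log2 0.70 against 24 h, 0.56 to 0.85). Srebf1, which insulin induces, was at 300.3 CPM at 24 h and 237 at 30 h (log2 -0.34), and the carbohydrate-sensing factor Mlxipl was at 657 and 619 CPM (log2 -0.087). Of 4 triglyceride genes out of 14 listed, Hsd17b13, a lipid droplet enzyme, was at 3280.0 CPM at 24 h and 5914 CPM at 30 h, its highest level (log2 0.85, 0.83 to 0.87). Gpam and Dgat2, which add the first and last fatty acid to glycerol, were at log2 ratios of -0.22 and -0.29, and Dgat1 at 0.39. None of the 7 listed cholesterol genes was on the panel.

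The classic pathway of bile acid synthesis had its enzymes at opposite ends. Cyp7a1 (chr4:6265612-6275633) is its rate-limiting enzyme. It was at 698, 1173 and 247 CPM at 0, 8 and 16 h, at 1642 CPM (1617 to 1667) at 24 h and at 645 CPM (630 to 660) at 30 h. The 24 h library was the highest of the 5 and the 30 h level was near that of the fed library, 2.55-fold below 24 h (log2 -1.35, -1.39 to -1.31). Cyp8b1 (chr9:121914356-121916305) directs intermediates towards cholic acid. It was at 2543, 4878, 1994, 2863 and 6542 CPM, so it was highest at 30 h and 2.29-fold above 24 h (log2 1.19, 1.17 to 1.21).

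Of 10 listed late enzymes the panel held 5, with a median log2 ratio of 0.35. Over 1.5-fold, 1 was higher and 1 lower, a share near that of all 55 genes (18.2% and 20%). Hsd3b7, which acts on the sterol ring, was at 1705 CPM at 24 h and 2647 at 30 h (log2 0.63, 0.61 to 0.66), and on the scale without Alb it was at 0.54, under 1.5-fold. Cyp2c70 (chr19:40153353-40187333), the rodent enzyme that makes muricholic acids, was at 2985, 4705, 4183, 1571 and 786 CPM. It was lowest at 30 h, 1.999-fold below 24 h (log2 -0.9995, -1.04 to -0.96). Baat and Slc27a5, which conjugate bile acids, were at log2 ratios of 0.48 and 0.35.

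None of the 4 alternative pathway hydroxylases on the panel differed over 1.5-fold. Their median was 0.32, with Cyp7b1 at 0.43, Cyp27a1 at 0.42, Cyp39a1 at 0.22 and Cyp46a1 at -0.085. Of the sensing genes, the bile acid receptor Nr1h4 was at -0.20, its target Nr0b2 at 0.29 and S1pr2, a receptor for conjugated bile acids, at -0.56 (-0.75 to -0.38, from 587 and 430 UMIs). Fgf15, an intestinal hormone, had no UMI in either library, where a count of 0 allows up to 0.288 CPM at 24 h and 0.266 CPM at 30 h.

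Genes outside these lists included markers of lobule position. Cyp2f2 was at 10422 CPM at 24 h and 16339 at 30 h (log2 0.65, 0.64 to 0.66) and Cyp2e1 at 30034 and 32950 CPM (log2 0.13). At 0, 8 and 16 h Cyp2f2 was at 19296, 13797 and 16026 CPM. Its 24 h level was thus the lowest of the 5 libraries, and its 30 h level lay near that of 16 h and below the fed library. Gulo, which ends the ascorbate pathway and is pericentral, was at 1675 and 964 CPM (log2 -0.80, -0.83 to -0.76), its lowest level. Glul was at 2156 and 1404 CPM (log2 -0.62, -0.65 to -0.59). At 0, 8 and 16 h it was at 2137, 2167 and 1065 CPM, so its lowest level was at 16 h and not at 30 h. Cd68, a macrophage gene, was at 14.8 and 6.47 CPM from 154 and 73 UMIs (log2 -1.19, -1.61 to -0.78). Actb, listed as a control gene, was at 7499.9 and 9755 CPM (log2 0.38). It was not steady over the course, at 20146, 13633 and 11168 CPM at 0, 8 and 16 h, with its lowest level at 24 h.

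Where in the lobule the step lay was read from the ratio of Cyp2e1 to Cyp2f2 in each barcode, log2 of (Cyp2e1 UMIs + 1) over (Cyp2f2 UMIs + 1). The median of this score was 0 at 24 h and -1.42 at 30 h, and Cyp2e1 exceeded Cyp2f2 in 48.2% and 31.9% of barcodes. Each library was divided into 3 ranges of equal size, low (Cyp2f2 side), middle and high (Cyp2e1 side). These are ranges of a score, not cell types. The cuts were at -0.65 and 1.81 at 24 h and at -1.93 and -0.17 at 30 h. Within 0.25 of the lower cut lay 16.6% and 17.7% of barcodes, and within 0.25 of the upper cut 3.24% and 3.50%. The high range held barcodes of fewer UMIs, with medians of 808 and 794 against 1586 and 1331 in the low range, and less Alb, 57.2% and 56.4% against 77.5% and 74.6%. The part of this depth and Alb gap in the differences between ranges was not tested.

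Most genes moved the same way in every range. Genes with fewer than 100 UMIs in the low or high range of either library, Fgf21 among them, were left out, as were Alb, Cyp2e1 and Cyp2f2. Of the 47 genes compared, 45 had the sign of the whole library in the low range, 46 in the middle and 41 in the high range. Over 1.5-fold were 17 genes in the low range (36.2%), 14 in the middle (29.8%) and 19 in the high range (40.4%). Pck1 went from 27991 to 50728 CPM in the low range, from 27929.5 to 51931 in the middle and from 26638 to 56274 in the high range. Its steps were 0.86, 0.89 and 1.08 on the log2 scale. The high range over the low range stood at -0.071 at 24 h and 0.15 at 30 h, but at -0.71 and -0.26 without Alb, Cyp2e1 and Cyp2f2, so which side was higher at 30 h turned with the denominator. In both, the step was wider in the high range, by 0.22 (0.20 to 0.24) in CPM and by 0.45 without those genes. Sds stood at log2 ratios of 1.23, 1.20 and 0.89, Igf1 at 1.06, 1.06 and 0.95, and Cyp8b1 at 1.40, 1.25 and 0.94. Scd1 was lower in each range, at -0.70, -0.86 and -0.78.

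In 6 of the 47 genes (12.8%) the step in the high range differed more than 1.5-fold from that in the low range, 2 upwards (4.26%) and 4 downwards (8.51%). The 4 were Glul, Elovl6, Fasn and Elovl3, and the 2 were Cyp7a1 and Gulo. Without Alb, Cyp2e1 and Cyp2f2 in the denominator there were 4 (8.51%), Glul and Elovl6 downwards and Cyp7a1 and Gulo upwards. In barcodes with 500 or more UMIs the difference for Gulo was 0.57 on the log2 scale, under 1.5-fold. Cyp7a1 went from 368 to 84.6 CPM in the low range, from 899 to 161 in the middle and from 5105 to 2269 in the high range, so its log2 ratios were -2.12, -2.48 and -1.17. Gulo had the same form, at -1.37, -1.76 and -0.66. Both genes were thus lower in every range. Fasn went from 711 to 928 CPM in the low range (log2 0.38, 0.32 to 0.45) and from 1283 to 967 in the high range (log2 -0.41, -0.48 to -0.33). Its high range over its low range was 0.85 at 24 h and 0.059 at 30 h, but 0.22 and -0.35 without Alb, Cyp2e1 and Cyp2f2. Elovl6 was lower throughout, at -0.42, -0.51 and -1.29.

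**Figure D3:**
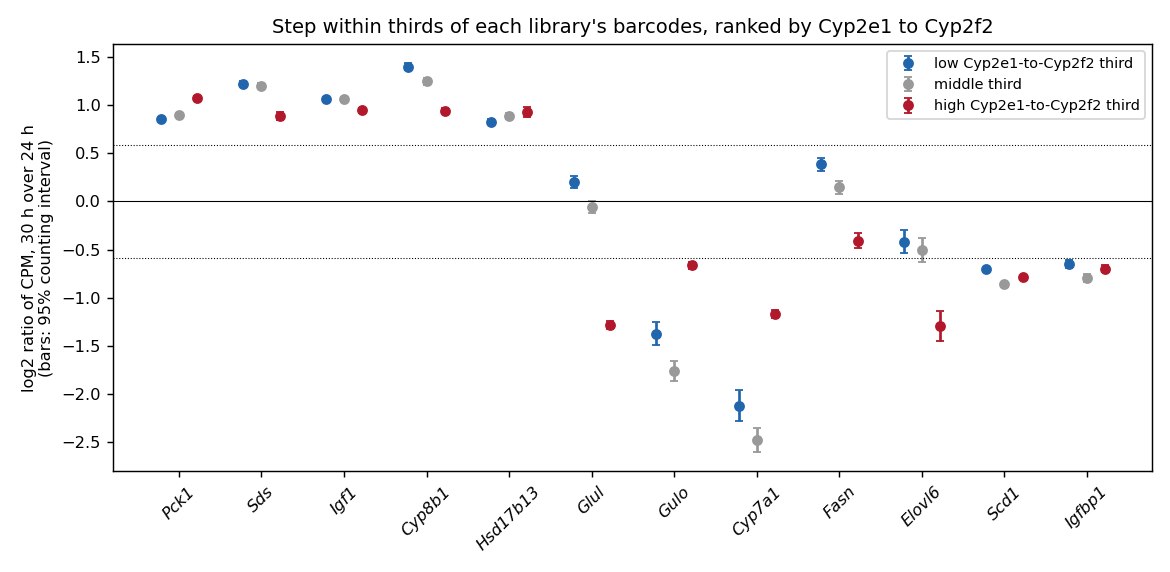
Log2 ratio of CPM at 30 h over 24 h (vertical axis, with 95% counting intervals) for 12 genes (horizontal axis) in the low, middle and high ranges of the Cyp2e1-to-Cyp2f2 score, cut separately in each library; dotted lines mark 1.5-fold. The 3 points of Pck1, Igf1 and Scd1 lie close together, while those of Glul spread from 0.20 to -1.29 and those of Fasn lie on both sides of 0.

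With the cuts of the 24 h library used in both, an alternative chosen after the data were seen, 63.0% of the 30 h barcodes fell below the lower cut, 12.8% between the cuts and 24.3% above the upper one. The log2 ratios of Gulo were then -1.21, -0.42 and -0.29, and those of Cyp7a1 -1.68, -0.44 and -0.87. Pck1 was at 0.87, 0.94 and 1.10, Fasn at 0.40, 0.12 and -0.40, and Glul at 0.24, 0.15 and -1.07. Gulo and Cyp7a1 were thus closer to 0 between the cuts than in the middle range, Glul there changed sign, and Pck1 and Fasn differed by less than 0.1 in each range.

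The lower Glul level at 30 h than at 24 h came with fewer barcodes rich in Glul. Such barcodes were not counted in the 16 h library, where Glul was lower still (1065 CPM). In the low, middle and high ranges Glul went from 899.9 to 1035 CPM, from 1145 to 1097 CPM and from 5999 to 2456 CPM, from 24 h to 30 h. Each barcode was then thinned at random to 500 UMIs, which left out 1293 shallower barcodes at 24 h and 1304 at 30 h. At least 10 Glul UMIs were found in 98 of 7265 barcodes at 24 h, 1.35% (1.10% to 1.64%, Clopper-Pearson), and in 24 of 8790 at 30 h, 0.273% (0.175% to 0.406%). These barcodes held 45.8% and 13.1% of all thinned Glul UMIs. Within them the median was 29 Glul UMIs at 24 h and 23 at 30 h, and in all other barcodes the mean was 0.692 and 0.662. At a limit of 20 Glul UMIs the shares were 0.950% and 0.159%, with medians of 46 and 52.5. At a limit of 5 they were 2.35% and 0.774%, with medians of 12 and 6. Each limit is set on Glul itself, so these medians depend on it and do not give the Glul level per cell. The Glul-rich barcodes held a mean of 92.2 Cyp2e1 UMIs at 24 h and 144 at 30 h. The number of such cells in each liver, the number that each isolation recovered and the Glul level within each cell cannot be told apart.

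Thinning also showed whether a step lay in most barcodes or in few. Pck1 was found in 99.8% and 99.99% of the thinned barcodes, and its quartiles moved from 10, 13 and 17 UMIs to 19, 27 and 34. The upper quartile of 24 h lay below the lower quartile of 30 h. The same was seen for Igf1, with quartiles of 3, 5 and 7 UMIs at 24 h and 8, 10 and 13 at 30 h. For Scd1 they were 38, 47 and 62 UMIs at 24 h and 18.25, 27 and 38 at 30 h, so the upper quartile of 30 h was at the lower quartile of 24 h. Sds went from quartiles of 1, 1 and 2 UMIs to 2, 3 and 5, and Cyp8b1 from 0, 1 and 2 to 2, 3 and 5.

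Of the 55 genes, 6 had a UMI in a share of barcodes more than 10 percentage points larger at 30 h (Elovl3, Cyp8b1, Sds, Hsd3b7, Hsd17b13 and Baat) and 7 in one more than 10 points smaller (among them Cyp2c70, Cyp7a1, Gulo, Igfbp1, Acly and Fads1). An Elovl3 UMI was found in 4.62% (4.15% to 5.13%) of thinned barcodes at 24 h and in 43.1% (42.1% to 44.2%) at 30 h, and in 8.87% and 65.0% before thinning. By range the shares were 1.70%, 2.96% and 10.7% at 24 h and 33.1%, 35.9% and 65.4% at 30 h, so the Cyp2e1 side was highest in both libraries. An Fgf21 UMI was found in 0.826% and 5.38% of thinned barcodes. For Cyp7a1 the shares were 39.9% and 19.4%. They were 15.4%, 29.5% and 86.1% by range at 24 h and 3.96%, 6.89% and 55.4% at 30 h. Gulo went from 41.8% to 24.4%.

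A background of free RNA could not be set for these shares. Among barcodes with at least 3 UMIs of genes of other cell types, 6 at 24 h and 9 at 30 h had 500 UMIs. An Elovl3 UMI was found in 1 of 6 and 3 of 9 of them, a Cyp7a1 UMI in 4 of 6 and 2 of 9, and an Fgf21 UMI in 0 of 6 and 2 of 9. All 17 and 18 such barcodes, whatever their depth, took 64.4% and 67.1% of their UMIs from Alb, so they hold hepatocyte RNA.

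**Figure D4:**
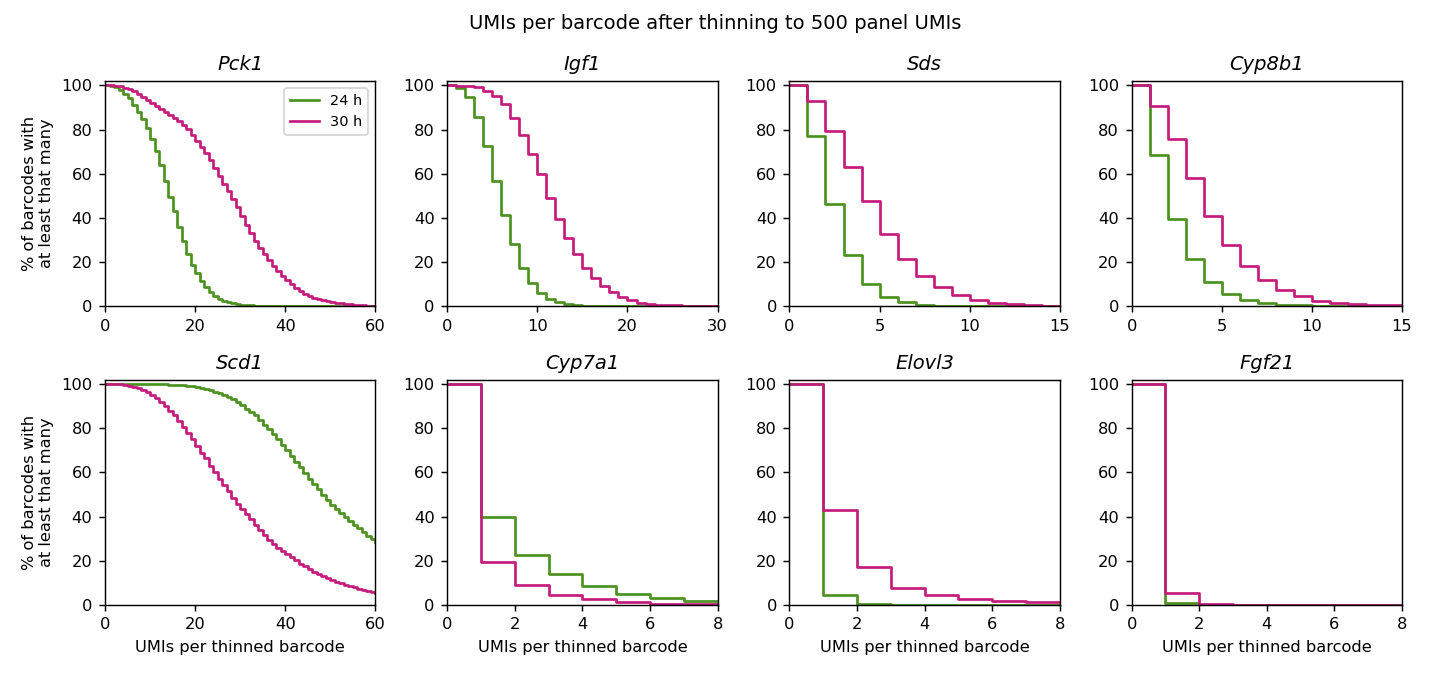
Share of barcodes (vertical axis, percent) with at least a given number of UMIs (horizontal axis) of 8 genes, after thinning each barcode to 500 panel UMIs, at 24 h (green) and 30 h (magenta). For Pck1 and Igf1 the whole curve of 30 h lies to the right, for Scd1 to the left, and for Elovl3 the share with at least 1 UMI goes from 4.62% to 43.1%.

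The first step of the fast, from 0 h to 8 h, shares no library with the last and also runs from clock hour 13 to an evening hour. Over 1.5-fold were 27 of the 55 genes (49.1%), 17 higher at 8 h (30.9%) and 10 lower (18.2%). In both steps 5 genes were higher (Cyp8b1, Elovl3, Hsd3b7, Pck1 and Sds), which is 50% of the 10 higher at 30 h and 29.4% of the 17 higher at 8 h. In both 3 were lower, Acly and Elovl6 among them, which is 27.3% of the 11 and 30% of the 10. Igf1 was higher in the last step and lower in the first, at log2 ratios of 1.04 and -0.62. Another 5 were lower in the last step and higher in the first (Cd68, Cyp2c70, Cyp7a1, Gulo and Igfbp1). Igfbp1 was at -0.70 in the last step and 4.57 in the first. Over 1.5-fold in the last step and not in the first were Cyp2f2, Fgf21, Hsd17b13 and Usf1, which were higher, and Glul, Pklr and Scd1, which were lower. In the first step those higher were at -0.48, 0.32, -0.18 and -0.57, in that order. Those lower were at 0.020, -0.016 and 0.080. Across the 55 genes, which are not independent replicates, Pearson's r between both steps was 0.35 and Spearman's rho 0.11. The 8 h library was shallow, with a median of 219 UMIs per barcode, and its genes of other cell types summed to 220.4 CPM, against 43.2 CPM at 24 h and 29.7 CPM at 30 h. The part of either in the 8 h values was not tested.

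**Figure D5:**
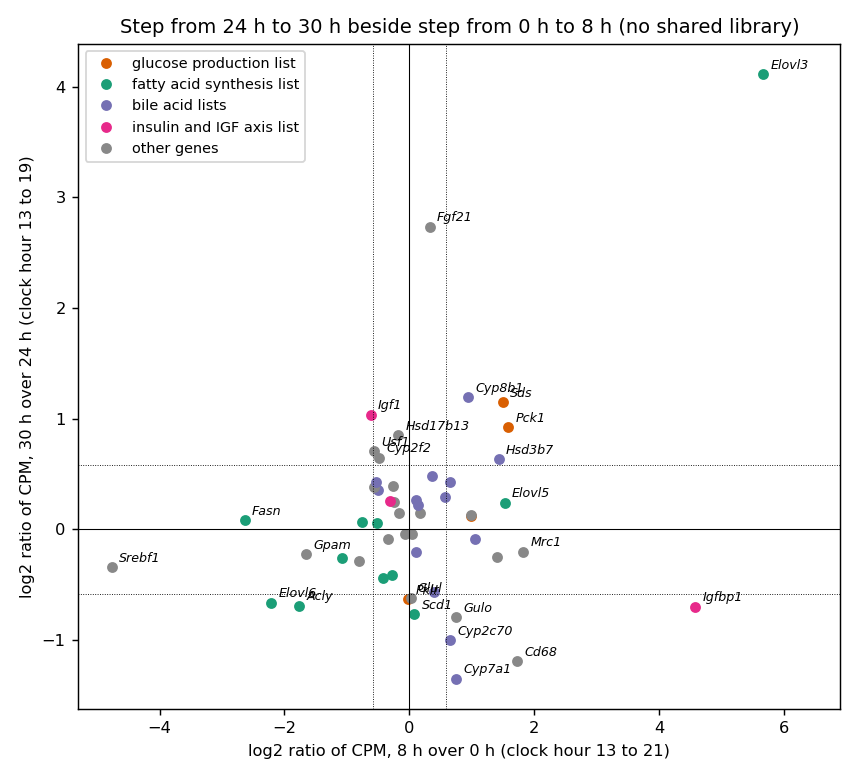
Log2 ratio of CPM at 30 h over 24 h (vertical axis) against log2 ratio at 8 h over 0 h (horizontal axis) for 53 of the 55 genes, coloured by gene list; dotted lines mark 1.5-fold. Elovl3 is at the upper right in both steps, Igfbp1 is far to the right and below 0, and Srebf1 at -4.77 and -0.34 is far to the left.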

How the data were processed

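Targeted 10x Genomics 3′ v3 libraries with target hybridization were made from isolated hepatocytes, 1 library per time, per the labels' protocols. The authors deposited raw UMI counts of 64 genes by 47473 barcodes, with Cell Ranger 6.0.1 named per the file headers and mm10 per the submitters' processing notes. The deposited barcode table gives each barcode's library as another, non-numeric column. Cell calling, depth equalisation and mice per library are not given in the sources used here.

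All barcodes were used, and no doublet caller was run on so small a panel; as an alternative, the deepest 5% of barcodes were left out. Bait capture makes levels of different genes not comparable. CPM had exact Poisson intervals, ratios exact conditional binomial intervals, differences between ranges normal intervals from the 4 counts and shares exact Clopper-Pearson intervals, at 95%. Genes needed 100 UMIs in both libraries together, and thinning used seed 1. A call is a difference over 1.5-fold, with no test. The members and gene lists were chosen with earlier results of these data known. Named genes were all list members with 100 UMIs, the 4 largest and then the nearest to 0 in full, plus the 8 furthest above and the 8 furthest below 24 h; other genes, among them Glul, Cyp2f2, Cyp2e1 and Rxra, were named after their values were seen. Of the genes compared, 2 enter the counts and medians but are not reported here. All 64 identifiers matched GENCODE M21 (GRCm38), and same-strand exons of other genes overlap 6, among them Glul (Mir8114), Usf1 (Tstd1), Hsd3b7 (Gm49388) and Srebf1 (Mir6922). Counts were also simulated at both depths with Poisson counting error only, with 20 of 54 genes changed 2-fold between 24 h and 30 h. Of the changed genes 99.5% were recovered, and 0% of unchanged genes were called. The draws held no variation between mice, libraries or cells, so they give no false-call rate for the real libraries. Python 3.11.15, numpy 2.4.6, scipy 1.17.1 and pandas 2.3.3 were used.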

Additional observations from a re-analysis of the deposited data

Results flagged for a closer look

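Of the 47 genes compared by Cyp2e1-to-Cyp2f2 range, 4 stepped in opposite directions in the low and high ranges from 24 h to 30 h. These 4 were higher at 30 h in the low range and lower in the high range, with both counting intervals clear of 0. Without Alb, Cyp2e1 and Cyp2f2 in the denominator, both intervals stayed clear of 0 for Fasn alone of the 4 (0.23 in the low range and -0.34 in the high range). The low range was then at 0.043 (-0.019 to 0.10) for Glul and 0.0026 (-0.12 to 0.12) for Elovl1, whose high range was at -0.11 (-0.24 to 0.026). With 1 library per time the difference was not tested. The high range minus the low range was -1.49 for Glul on the log2 scale, -0.79 for Fasn, -0.39 for Rxra, a partner of nuclear receptors, and -0.33 for Elovl1, which elongates saturated fatty acids. The steps of Rxra were 0.31 in the low range and -0.073 in the high range. Without those genes its high range was at -0.0068 (-0.056 to 0.043). With the cuts of the 24 h library in both, the high range was at -0.016 (-0.069 to 0.038) for Rxra and at -0.13 (-0.27 to 0.016) for Elovl1, and both intervals include 0.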

How the results depend on the processing

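The 45 named genes were recomputed under 8 alternatives (UMIs per barcode, median-of-ratios scaling, no Alb, per-barcode mean CPM, barcodes with 500 or more UMIs, no top 5% of barcodes, and, chosen after the data were seen, a denominator without Alb, Scd1, Pck1 and Cyp2e1 and no barcode sequence found in another library). Pck1 and Scd1 had 7 alternatives and Alb had 6, as a gene left out of a denominator has no ratio there. Of the 45, 37 stayed on the same side of 1.5-fold in every alternative they had. Among them were 15 of the 18 that were past it, Pck1 and Scd1 included. The 3 that lost it in an alternative were Hsd3b7, past it in 3 of 8, Usf1 in 6 and Hsd17b13 in 7, and S1pr2 stayed under it in 3 of 8. The 10 higher and 11 lower of 55 genes became 5 and 15 of 51 without Alb, Scd1, Pck1 and Cyp2e1. These 4 genes left the count as well as the denominator, among them Pck1 from those higher and Scd1 from those lower. At a limit of 2-fold in CPM, 5 of the 55 were higher and 3 lower. Without Alb, Scd1, Pck1 and Cyp2e1, the median of the 51 genes was -0.24. The sign turned there for Akr1d1 (-0.057), Cyp39a1 (-0.11), Elovl2 (-0.27), Elovl5 (-0.085), Fasn (-0.24), G6pc (-0.20), Igfbp2 (-0.069), Nr0b2 (-0.032) and Nr1h3 (-0.074). Per barcode it turned for Elovl2 (-0.066), Fasn (-0.043) and G6pc (-0.0016), with median-of-ratios scaling for Elovl2 (-0.051) and Fasn (-0.028), and without Alb for Elovl2 (-0.035) and Fasn (-0.012). Elovl1, whose interval in CPM includes 0 (0.065, -0.0059 to 0.14), turned in these 4 settings too (-0.26, -0.059, -0.044 and -0.028). Each of these settings shifts all genes alike. Of the genes whose step was over 1.5-fold higher in the high range, 1 was left with 500 or more UMIs, Cyp7a1 (0.83), while Gulo was at 0.57. Of those lower, 2 were left without Alb, Cyp2e1 and Cyp2f2. With the cuts of the 24 h library in both, Elovl3 was at -0.54, also under 1.5-fold. Beside the step from 0 h to 8 h, genes higher at 30 h and lower at 8 h numbered 1 of 55 in CPM. They numbered 2 with 500 or more UMIs and 0 without Alb. Genes lower at 30 h and higher at 8 h numbered 5 of 55 in CPM and 2 with 500 or more UMIs. The cause was not tested. No paired analysis was possible because each time had 1 library and the labels carry no replicate numbers, and leaving out a replicate was not possible for the same reason. Genes under 100 UMIs were too shallow to compare.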
